A study of Mus musculus with 2 samples.

Results

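The transforming growth factor beta (TGF-beta) and platelet-derived growth factor (PDGF) signalling genes described here were 10 genes chosen by symbol from the gene list of the count matrices: the TGF-beta ligands Tgfb1, Tgfb2 and Tgfb3, the TGF-beta receptors Tgfbr1, Tgfbr2 and Tgfbr3, the PDGF ligands Pdgfa and Pdgfb, and the PDGF receptors Pdgfra and Pdgfrb. Each symbol matched 1 row, so the set held 10 of the 32285 genes listed. The counts came from single-nucleus RNA-seq of sorted liver nuclei from male C57BL6/J mice kept for 5 months on a diet that induces metabolic dysfunction-associated steatohepatitis (MASH, 40% of calories from fat, 20% from fructose, and 2% cholesterol), which began at 10 to 12 weeks of age. One library came from Themis flox/flox mice (Flox, also marked WT), which carry no Cre, and 1 from Themis flox/flox mice that also carried Alb-Cre (HKO), a Cre driven by the albumin promoter and therefore active in hepatocytes and other albumin-expressing cells. Each library was made from a pool of livers, so that the variation between mice cannot be seen, and both genotypes received the MASH diet.

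TGF-beta is secreted as a latent complex and, once released, brings the type II receptor TGFBR2 and the type I receptor TGFBR1 together. Within this pair TGFBR1 then phosphorylates SMAD proteins. TGFBR3, or betaglycan, is a co-receptor that presents ligand, TGF-beta2 in particular, to that pair. PDGF ligands are dimers of A, B, C or D chains that bind the tyrosine kinase receptors PDGFRA and PDGFRB. In the liver both pathways are known for acting on hepatic stellate cells (HSCs), the pericytes that store vitamin A and lay down fibrillar collagen in fibrosis. PDGF drives their proliferation and migration, and TGF-beta drives their collagen synthesis.

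Promoter windows, from 250 bases before to 50 bases after an annotated start, were listed by RefSeq (GRCm38.p6) for 6 of the 10 genes, in 8 windows. Those of Tgfb1 and Tgfb2 are shown because these related ligands differed in their highest class among the 8 classes compared below. That class was the leukocyte cluster for Tgfb1 and cholangiocytes for Tgfb2. Capitals mark the GC box GGGCGG and the TATA box TATAAA on either strand. The first window lies at chr7:25686752-25687051 on the plus strand and the second at chr1:186705940-186706239 on the minus strand, both read 5′ to 3′ along the gene.
Tgfb1: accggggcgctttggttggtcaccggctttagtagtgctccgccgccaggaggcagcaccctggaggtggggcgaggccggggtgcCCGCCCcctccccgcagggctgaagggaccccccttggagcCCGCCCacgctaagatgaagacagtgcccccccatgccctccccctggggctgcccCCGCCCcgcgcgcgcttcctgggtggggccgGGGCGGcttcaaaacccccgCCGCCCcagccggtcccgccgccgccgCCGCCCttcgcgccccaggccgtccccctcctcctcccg
Tgfb2: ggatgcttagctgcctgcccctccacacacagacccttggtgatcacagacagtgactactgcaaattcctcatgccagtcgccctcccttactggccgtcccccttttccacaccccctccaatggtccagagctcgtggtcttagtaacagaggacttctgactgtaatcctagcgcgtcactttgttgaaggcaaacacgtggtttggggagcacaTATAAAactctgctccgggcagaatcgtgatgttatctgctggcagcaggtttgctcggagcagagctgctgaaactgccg
The Tgfb1 window held 6 GC boxes, and 0 TATA boxes, whereas the Tgfb2 window held 0 GC boxes and 1 TATA box. Of the 32851 windows listed, 35.7% held a GC box and 13.6% a TATA box. A GC box was found in 4 of the 8 windows of these genes and a TATA box in 1, and the AP-1 site TGANTCA, present in 7.81% of all windows, was found in 0 of the 8. These matches describe the letters in the windows and do not show that a factor was bound.

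The Flox library held 9363 barcodes and 58171337 unique molecular identifiers (UMIs) and the HKO library 10748 barcodes and 40475938 UMIs. After filtering and removal of predicted doublets, 8659 and 9801 nuclei were left, with medians of 5966 and 1975 UMIs, so that the HKO nuclei were the shallower. A total of 27 barcode sequences occurred in both libraries. Levels are therefore given as CPM, the UMIs of a gene per 1000000 UMIs of all genes summed over the nuclei of a class, with exact 95% Poisson intervals, and levels of different genes are not compared because 3′ counts depend on the transcript end. With 1 library per genotype no test between genotypes was possible, and every interval covers counting error alone, not the variation between mice or preparations. Themis, the gene targeted in hepatocytes, was at 163 CPM (159 to 166) in hepatocyte-like nuclei of the Flox library and at 246 CPM (240 to 252) in those of the HKO library. The 3′ counts may come from a stretch of the transcript outside the deleted part, in which case they do not check the deletion. As the direction goes against the label, the libraries are called by their labels throughout, and a direction between them is a direction between labelled libraries.

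Nuclei fell into 21 clusters, which were formed without the 10 genes or other genes of their pathways and then named from marker genes. Hepatocyte-like nuclei numbered 5808 in the Flox library and 4351 in the HKO library, HSC-like nuclei 822 and 1180, endothelial-like nuclei 777 and 1250, macrophage-like nuclei 512 and 1393, cholangiocyte-like nuclei 135 and 547, T or NK cell-like nuclei 157 and 297, and B cell-like nuclei 78 and 96. A further cluster of 228 and 351 nuclei expressed markers of monocytes, of conventional and plasmacytoid dendritic cells and of plasma cells, as well as macrophage markers, which summed to 3764 and 3327 CPM there, and, in 25 and 2 nuclei, mostly markers of neutrophils, and is called the leukocyte cluster. These 8 classes were compared. Of the 10 genes, 7 had their highest CPM in the same class in both libraries, beside 57.2% of the 12718 genes with at least 200 UMIs.

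**Figure D1:**
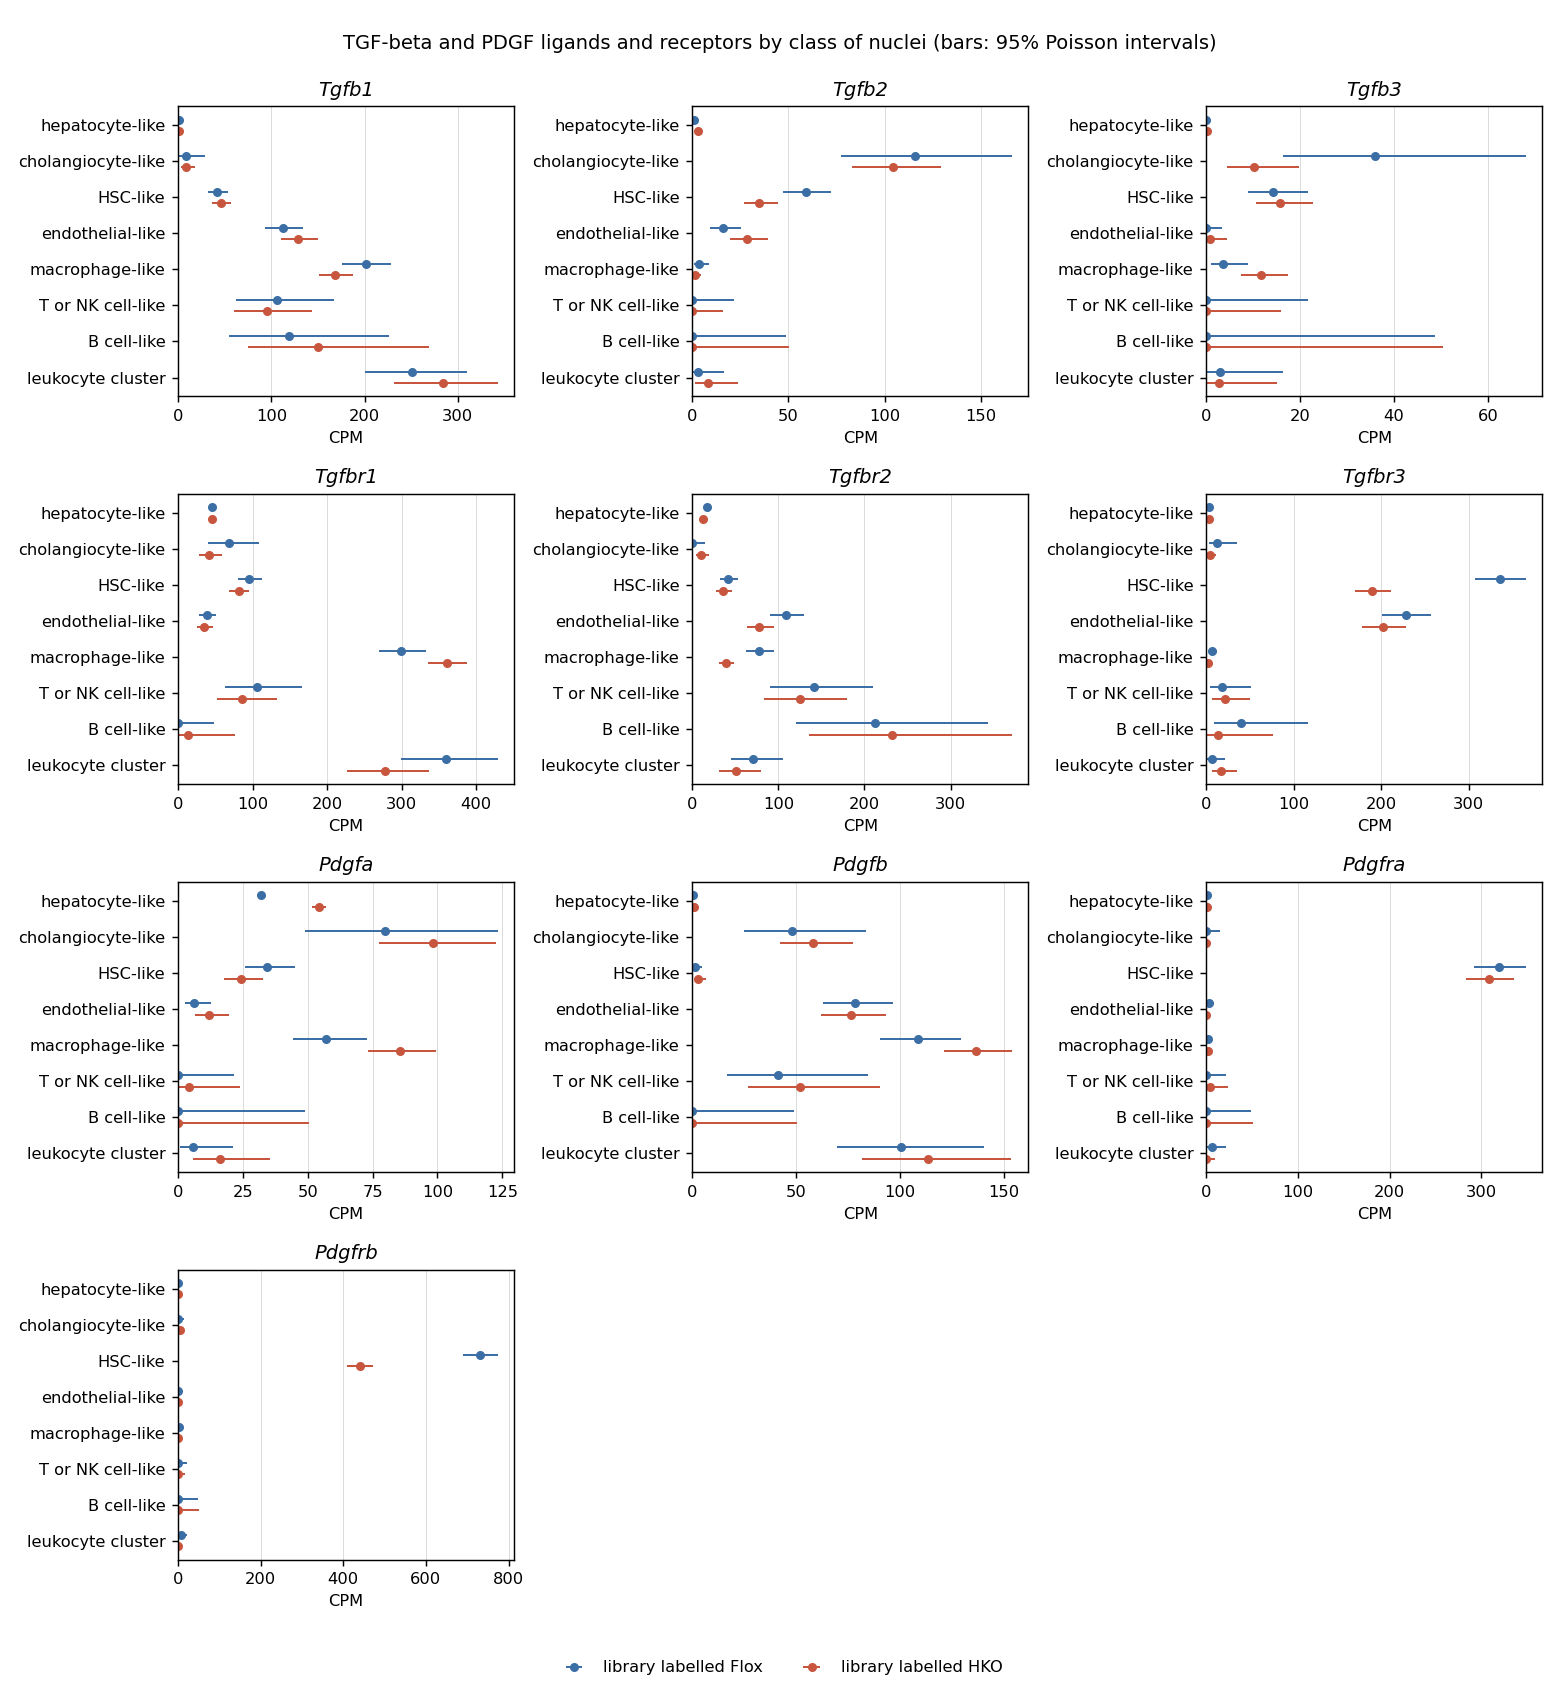
CPM of each of the 10 genes (x axis, from 0, a separate scale for each gene) in the 8 classes of nuclei (y axis), with points for the library labelled Flox in blue and the library labelled HKO in red and bars for 95% Poisson intervals. Pdgfra and Pdgfrb stand above 300 CPM in HSC-like nuclei and below 6 CPM in the other 7 classes, whereas Tgfb1 is spread over the leukocyte, macrophage, endothelial and lymphocyte classes and is near 1 CPM in hepatocytes.

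Among the ligands, Tgfb1 (ENSMUSG00000002603, chr7:25687002-25705077, GRCm38, GENCODE M21) was highest in the leukocyte cluster, at 251 CPM (200 to 310, 85 UMIs) in the Flox library and 284 CPM (232 to 343, 105 UMIs) in the HKO library. Macrophage-like nuclei followed with 201 (176 to 229) and 169 CPM (151 to 188). Endothelial-like nuclei had 112 (93.4 to 134) and 129 CPM (110 to 150), and the intervals of the T or NK cell-like and B cell-like nuclei overlapped those of the endothelium. HSC-like nuclei were lower, at 42.1 and 45.7 CPM. Hepatocytes were at 1.14 and 1.202 CPM, which was 0.457% and 0.424% of the level in the leukocyte cluster. The marker genes of macrophages in hepatocyte-like nuclei reached medians of 0.215% and 0.448% of their level in macrophage-like nuclei, with single markers at 34.9% and 44.2%. These medians are a rough measure of the free RNA that nuclei pick up. They have another base than the Tgfb1 percentages, and the part of free RNA in hepatocyte Tgfb1 was not tested. A small hepatocyte-like cluster led by Dtl and Uhrf1 held 15 of the 53 Flox and 0 of the 33 HKO UMIs of Tgfb1 in hepatocytes. Within the leukocyte cluster, nuclei with most markers of monocytes had 399 (278 to 554, 53 nuclei) and 466 CPM of Tgfb1 (333 to 634, 76 nuclei), while 0 UMIs were counted in the 12 and 23 nuclei with most plasma cell markers, with upper 95% limits of 170 and 98.5 CPM.

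Tgfb2 (ENSMUSG00000039239, chr1:186622792-186705989, minus strand) had another distribution. Its level was 116 CPM (77.6 to 166, 29 UMIs) and 105 CPM (83.2 to 130, 83 UMIs) in cholangiocyte-like nuclei of the Flox and HKO libraries, and 58.9 CPM (47.4 to 72.3) and 35.0 CPM (26.8 to 44.8) in HSC-like nuclei. In endothelial-like nuclei it was at 16.0 and 28.3 CPM, in macrophage-like nuclei at 3.47 and 1.51 CPM, and in T or NK cell-like and B cell-like nuclei no UMI was counted. The intervals of cholangiocytes and HSCs did not overlap in either library. Hepatocytes held 0.756 CPM in the Flox library (35 UMIs) and 2.99 CPM in the HKO library (82 UMIs).

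Tgfb3 (ENSMUSG00000021253, chr12:86056745-86079041, minus strand) was the ligand with the fewest UMIs, 43 in the Flox and 69 in the HKO library. It was highest in cholangiocyte-like nuclei of the Flox library (35.9 CPM, 16.4 to 68.2, from 9 UMIs) and in HSC-like nuclei of the HKO library (15.8 CPM, 10.5 to 22.8, from 28 UMIs). HSC-like nuclei of the Flox library had 14.2 CPM (8.93 to 21.6) and cholangiocyte-like nuclei of the HKO library 10.1 CPM (4.35 to 19.8), so that the order of these classes was not separated beyond counting error in either library. Hepatocytes had 1 and 4 UMIs.

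Of the TGF-beta receptors, Tgfbr1, which encodes the type I kinase (ENSMUSG00000007613, chr4:47353222-47414931), was found in 15 of the 16 combinations of class and library and was highest in macrophage-like nuclei and the leukocyte cluster. Macrophage-like nuclei had 300 CPM (269 to 333) and 361 CPM (335 to 389), and the leukocyte cluster 360 (299 to 430) and 278 CPM (227 to 337), so that the order of the pair turned between the libraries. HSC-like nuclei had 95.8 (81.0 to 113) and 81.2 CPM (68.5 to 95.6). Hepatocytes were lower but well measured, at 45.9 (44.0 to 47.9, 2127 UMIs) and 45.3 CPM (42.8 to 47.8, 1242 UMIs). These hepatocytes held 74.4% and 52.1% of the Tgfbr1 UMIs of their libraries, below their 90.1% and 79.2% of all UMIs.

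Tgfbr2, which encodes the type II receptor that binds the ligand (ENSMUSG00000032440, chr9:116084293-116175360, minus strand), was highest in lymphocytes among the 8 classes. It was at 212 CPM (121 to 344, 16 UMIs) and 232 CPM (135 to 372, 17 UMIs) in B cell-like nuclei. T or NK cell-like nuclei had 141 (90.3 to 210) and 125 CPM (83.8 to 180). Endothelial-like nuclei followed with 109 (90.2 to 130) and 77.8 CPM (63.2 to 94.7). The intervals of these 3 classes overlapped in the Flox library, and in the HKO library those of the B cell-like nuclei lay above those of the endothelium. The B cell-like nuclei also held endothelial markers, which summed to 1522 and 819 CPM there against 11106 and 9419 CPM in the endothelium, and their part in the level was not tested. HSC-like nuclei had 41.4 and 36.1 CPM and hepatocytes 16.9 and 13.04 CPM. Cholangiocyte-like nuclei had 0 UMIs in the Flox library and 8 UMIs (10.1 CPM, 4.35 to 19.8) in the HKO library.

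Tgfbr3 (ENSMUSG00000029287, chr5:107106570-107289629, minus strand) was found chiefly in HSCs and endothelium. It reached 336 CPM (308 to 366, 519 UMIs) in HSC-like nuclei of the Flox library and 189 CPM (170 to 211, 336 UMIs) in those of the HKO library. Endothelial-like nuclei had 228 CPM (201 to 258) and 202 CPM (178 to 228). HSCs were thus above the endothelium in the Flox library, and the intervals overlapped in the HKO library, where the endothelium was nominally higher. Hepatocytes had 3.05 and 2.55 CPM and macrophage-like nuclei 6.07 and 1.51 CPM.

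Among the PDGF ligands, Pdgfa (ENSMUSG00000025856, chr5:138976014-138997370, minus strand) was found in hepatocytes, at 31.9 CPM (30.3 to 33.6, 1477 UMIs) in the Flox and 54.2 CPM (51.5 to 57.0, 1487 UMIs) in the HKO library. Cholangiocyte-like nuclei had the highest level, 79.9 CPM (48.8 to 123, 20 UMIs) and 98.2 CPM (77.6 to 123, 78 UMIs), and macrophage-like nuclei had 57.2 (44.2 to 72.8) and 85.4 CPM (73.0 to 99.2), which overlapped with the cholangiocytes in both libraries. HSC-like nuclei held 34.3 and 24.2 CPM, and lymphocytes 0 or 1 UMI. Because hepatocytes held 90.1% and 79.2% of all UMIs, they also held 90.4% and 80.6% of the Pdgfa UMIs, about their share of the RNA as a whole.

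Pdgfb (ENSMUSG00000000489, chr15:79995874-80014977, minus strand) was highest in macrophage-like nuclei, at 108 CPM (90.2 to 129, 125 UMIs) and 137 CPM (121 to 154, 272 UMIs). The leukocyte cluster, with 100.3 (69.5 to 140) and 113 CPM (81.8 to 153), could not be separated from it. Endothelial-like nuclei had 78.3 (62.8 to 96.5) and 76.2 CPM (61.8 to 93.0), and cholangiocyte-like nuclei 47.9 and 57.9 CPM. Hepatocytes had 0.216 and 0.619 CPM, or 0.199% and 0.453% of the macrophage level. These percentages lay close to the medians of the macrophage markers in hepatocytes, 0.215% and 0.448%, although single markers reached 34.9% and 44.2%. The Pdgfb ratio between the hepatocytes of the libraries was 2.87 (1.24 to 7.01), from 10 and 17 UMIs. The part of free RNA in these low levels was not tested. HSC-like nuclei, the cells with the receptor, had 2 and 5 Pdgfb UMIs.

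The PDGF receptors were found in HSCs. Pdgfra (ENSMUSG00000029231, chr5:75152292-75198215) was at 320 CPM (292 to 349, 494 UMIs) in HSC-like nuclei of the Flox library and 308 CPM (283 to 335, 547 UMIs) in those of the HKO library, and these nuclei held 94.6% and 96.5% of the Pdgfra UMIs although they held 3.01% and 5.12% of all UMIs. Pdgfrb (ENSMUSG00000024620, chr18:61045150-61085061) was at 731 CPM (689 to 775, 1129 UMIs) and 439 CPM (409 to 471, 779 UMIs), with 97.3% and 95.9% of its UMIs in HSC-like nuclei. In the other 7 classes Pdgfra had at most 5.90 CPM and Pdgfrb at most 5.90 CPM, each from 2 UMIs. Hepatocytes had 0.410 and 0.401 CPM of Pdgfra and 0.497 and 0.802 CPM of Pdgfrb, which was 0.0680% to 0.182% of the HSC level and near the medians of the HSC markers in hepatocytes, 0.151% and 0.211%. These were the 2 genes of the set highest in HSC-like nuclei in both libraries, as were 5.06% of the 12718 genes.

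To compare nuclei of unequal depth, each was thinned to 1000 UMIs, and shallower nuclei were left out. Pdgfrb was then detected in 374 of 800 HSC-like nuclei of the Flox library (46.8%, exact binomial interval 43.2 to 50.3) and in 345 of 996 of the HKO library (34.6%, 31.7 to 37.7). Pdgfra was detected in 26.1% (23.1 to 29.3) and 25.3% (22.6 to 28.1) of the same nuclei. Before thinning the shares were 63.6% and 43.0% for Pdgfrb and 39.5% and 34.0% for Pdgfra. The median depths of these HSC-like nuclei were 1775 and 1408.5 UMIs. In hepatocytes, which should lack both genes and had median depths of 7465 and 5926 UMIs, the thinned shares were 0.0690% and 0.138% for Pdgfrb and 0.0517% and 0.0230% for Pdgfra. Both receptors were found together in 102 of the 800 thinned Flox nuclei and 82 of the 996 thinned HKO nuclei, where independent detection would give 97.7 and 87.3. At this depth the receptors therefore did not divide the HSC-like nuclei into a Pdgfra and a Pdgfrb population.

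The HSC-like, endothelial-like and macrophage-like nuclei each consisted of a pair of clusters. The clusters were formed without the 10 genes, and the ratios that follow are descriptions with exact conditional binomial intervals. HSC-like nuclei were divided into a cluster of low fibrillar collagen expression (626 and 785 nuclei) and a cluster led by Col1a2 and Col1a1 (196 and 395 nuclei). Tgfb3 was at 45.8 CPM (16 UMIs) and 34.4 CPM (20 UMIs) in the collagen-high cluster and at 5.02 and 6.72 CPM in the collagen-low cluster, ratios of 9.13 (3.40 to 28.5) and 5.12 (2.16 to 13.4). Pdgfrb was 1.43 times as high in the collagen-high cluster in both libraries, with intervals of 1.25 to 1.62 and 1.23 to 1.65. Pdgfra was 1.31 (1.07 to 1.61) and 1.61 times (1.36 to 1.91) as high there. Tgfbr3 turned between libraries, with a ratio of 1.23 (1.003 to 1.497) in the Flox and 0.661 (0.509 to 0.8504) in the HKO library. When HSC-like nuclei were instead ranged by fibrillar collagen UMIs among 1000 UMIs, with no cluster involved, Pdgfrb was at 662, 670 and 807 CPM in nuclei with 0, 1 to 2 and 3 or more such UMIs in the Flox library, and at 422, 322 and 521 CPM in the HKO library. The Pdgfrb intervals of the 1 to 2 and the 3 or more bins were apart in both libraries (608 to 738 and 742 to 876, 279.6 to 370 and 473 to 574), whereas those of the 0 and the 3 or more bins overlapped. Pdgfra was at 331, 295 and 338 CPM and 291, 311 and 309 CPM, with overlapping intervals. These bins cut a range and are not cell types.

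The endothelial clusters were a sinusoidal cluster (684 and 1092 nuclei) and a cluster led by Vwf (93 and 158 nuclei), here called vascular. Tgfb2 was at 114 CPM (62.1 to 191, 14 UMIs) and 197 CPM (134 to 279, 31 UMIs) in vascular endothelium. In sinusoidal endothelium it was at 3.999 and 4.49 CPM (4 and 5 UMIs), which gave ratios of 28.4 (8.92 to 119) and 43.9 (16.9 to 144). The vascular interval overlapped that of cholangiocyte-like nuclei in the Flox library (77.6 to 166) and lay above it in the HKO library (83.2 to 130). Tgfbr2 was at 308 (218 to 423) and 228 CPM (160 to 316) in the vascular and 84.0 and 56.5 CPM in the sinusoidal cluster, ratios of 3.67 (2.43 to 5.45) and 4.04 (2.61 to 6.18). Its vascular intervals overlapped those of B cell-like nuclei in both libraries (121 to 344 and 135 to 372). Against T or NK cell-like nuclei they lay above in the Flox library (90.3 to 210) and overlapped in the HKO library (83.8 to 180). Vascular endothelium thus carried both the ligand and the type II receptor at several times the sinusoidal level. Tgfb1 had no such excess, at 81.2 and 82.5 CPM in the vascular and 116 and 135 CPM in the sinusoidal cluster. Pdgfb was at 105 and 152 CPM in the vascular and 74.98 and 65.5 CPM in the sinusoidal cluster, and the ratio was beyond counting error in the HKO library (2.33, 1.40 to 3.73) and not in the Flox library (1.41, 0.716 to 2.55).

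Macrophage-like nuclei were divided into a cluster led by Clec4f and Cd5l, the Kupffer cluster (352 and 465 nuclei), and a cluster led by Mmp12, Gpnmb and other genes of Trem2-positive macrophages (160 and 928 nuclei). The Trem2 cluster was the higher in Tgfbr1, with 551 (472 to 638) and 476 CPM (437 to 516) against 204 and 190 CPM in the Kupffer cluster. It was also the higher in Pdgfb, with 175 (132 to 227) and 181 CPM (158 to 207) against 82.7 and 70.3 CPM, and in Pdgfa, with 93.8 (63.3 to 134) and 113 CPM (94.8 to 134) against 43.2 and 43.9 CPM. The ratios were 2.70 and 2.51 for Tgfbr1, 2.12 and 2.57 for Pdgfb, and 2.17 and 2.57 for Pdgfa, with intervals above 1 in each library. Tgfb1 was at 163 and 166 CPM in the Trem2 and at 216 and 173 CPM in the Kupffer cluster.

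**Figure D2:**
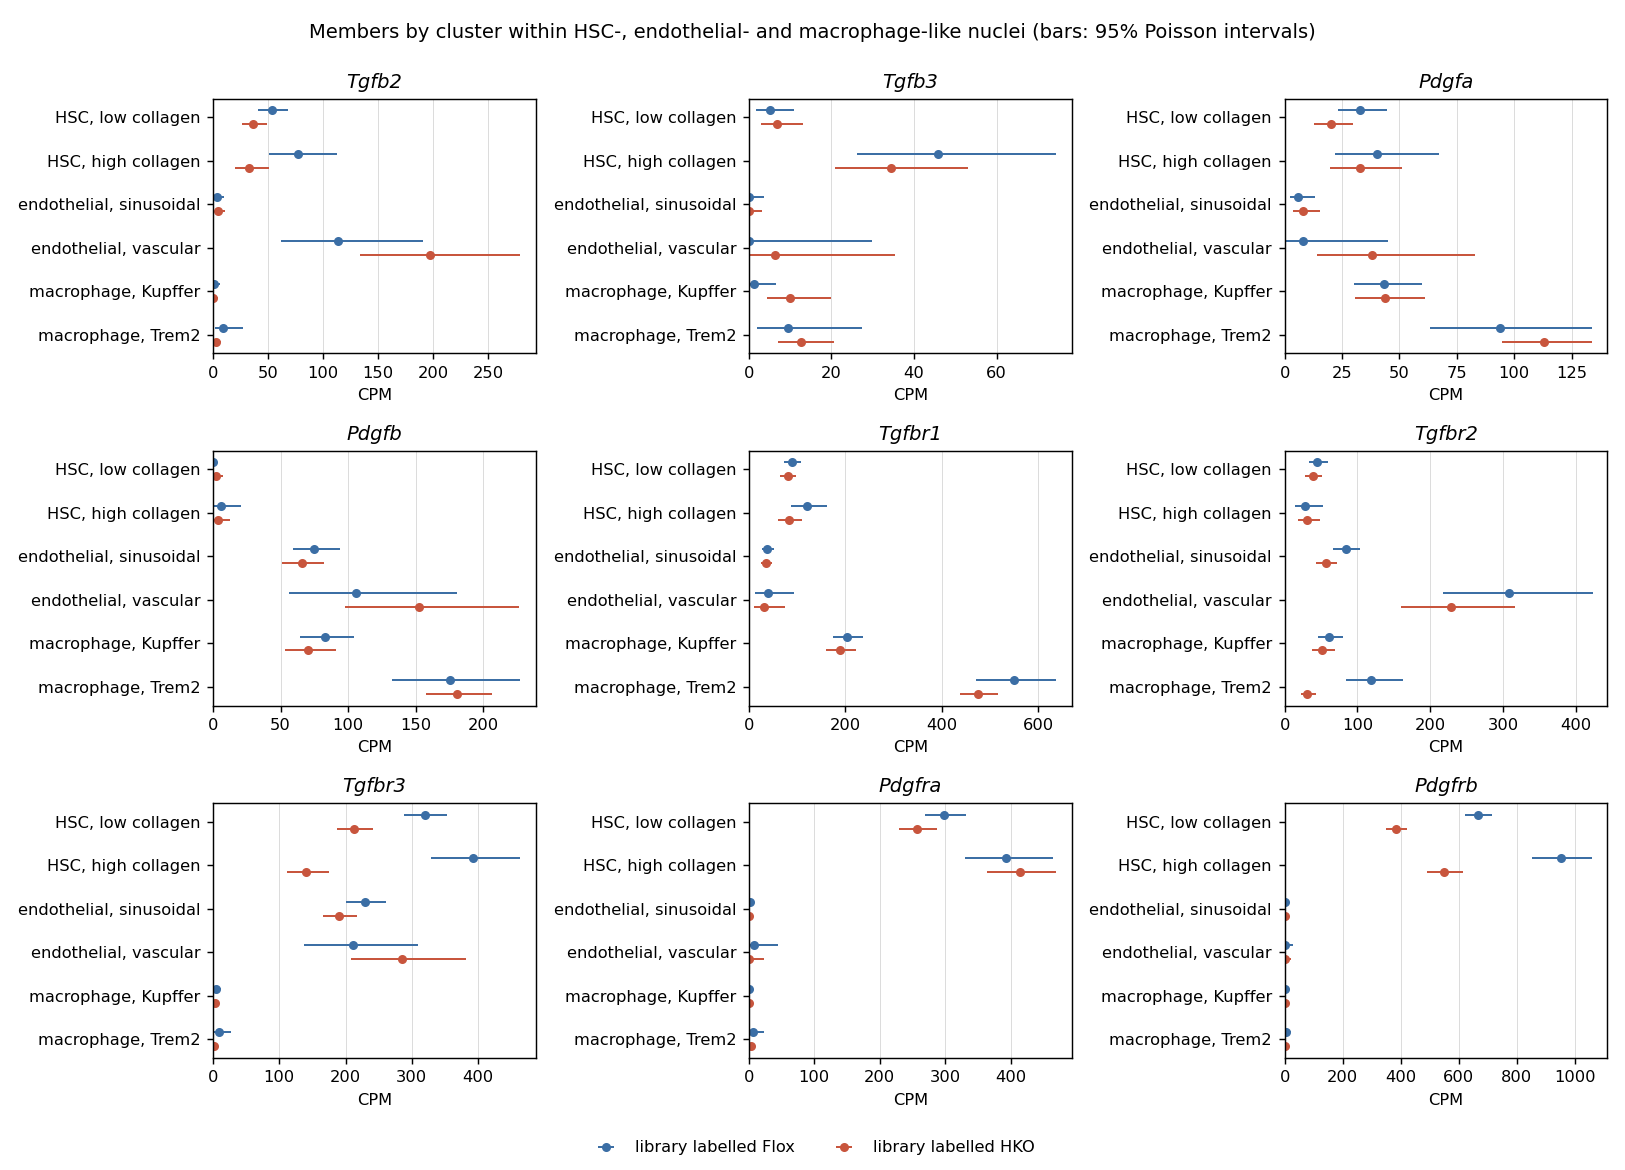
CPM of 9 of the genes (x axis, from 0, a separate scale for each gene) in the clusters within HSC-like, endothelial-like and macrophage-like nuclei (y axis), with points for the libraries labelled Flox (blue) and HKO (red) and bars for 95% Poisson intervals. Tgfb2 stands at 114 and 197 CPM in vascular and near 4 CPM in sinusoidal endothelium, and Tgfbr1, Pdgfa and Pdgfb stand higher in the Trem2 than in the Kupffer cluster.

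Between the libraries, 44 of the 80 combinations of gene and class had at least 20 UMIs. The interval of the HKO to Flox ratio lay above 1 in 7 of them, below 1 in 7 and included 1 in 30. Over all pairs of a gene and 1 of the 8 classes with at least 20 UMIs, 63894 in number, such intervals lay above 1 in 12.1% and below 1 in 16.2%, shares that rise with the counts. In macrophage-like nuclei 4 of the 6 genes of the set lay above 1 and 2 below, in hepatocytes 3 and 1 of 9, and in HSC-like nuclei 0 and 3 of 9, against 7.84% and 16.0%, 30.4% and 32.4%, and 9.10% and 14.3% of all genes in those classes. Past 2-fold, with 1 CPM added to both sides, were 2 combinations: Tgfb2 in hepatocytes and Tgfb3 in macrophages. The share of all genes past 2-fold was 3.85% in hepatocyte-like, 5.99% in HSC-like, 4.49% in endothelial-like, 5.96% in macrophage-like and 10.4% in cholangiocyte-like nuclei.

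**Figure D3:**
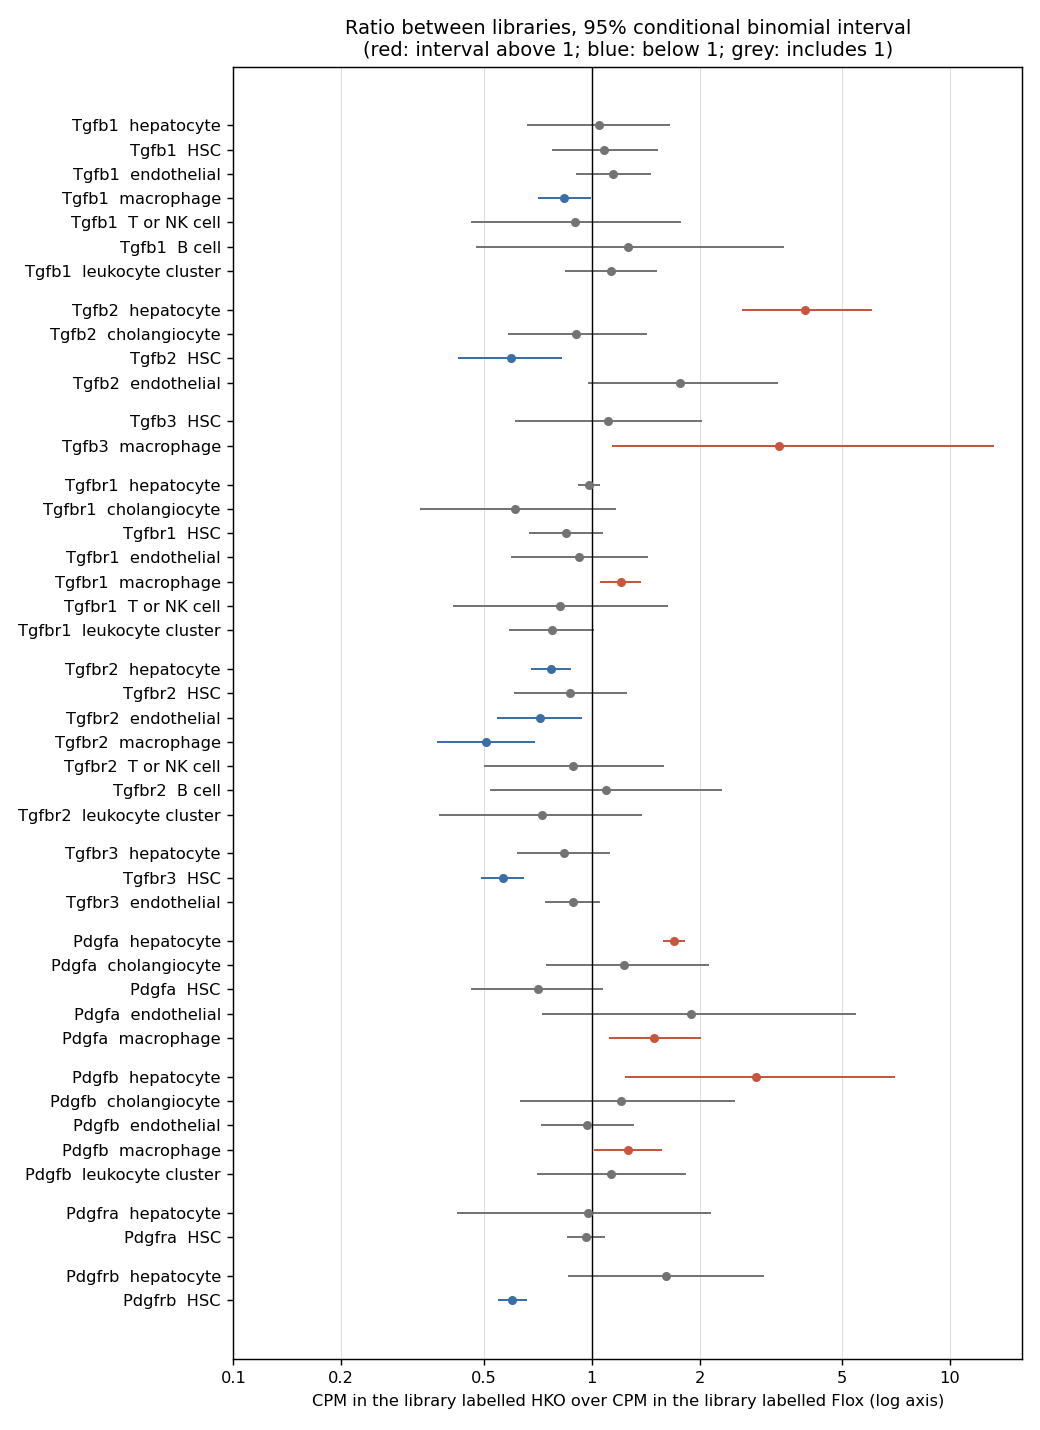
Ratio of CPM in the library labelled HKO to that in the library labelled Flox (x axis, log scale) for the 44 combinations of gene and class with at least 20 UMIs (y axis), with bars for 95% conditional binomial intervals. Red marks the 7 intervals above 1, which include Pdgfa and Tgfb2 in hepatocytes, and blue the 7 below 1, which include Pdgfrb and Tgfbr3 in HSCs.

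In HSC-like nuclei the receptors did not move as a block. Pdgfrb was lower in the HKO library, 439 against 731 CPM, a ratio of 0.601 (0.548 to 0.659) and a log2 ratio of -0.73. Tgfbr3 was lower with a ratio of 0.564 (0.490 to 0.648), and the ligand Tgfb2 with a ratio of 0.593 (0.423 to 0.829). Pdgfra had a ratio of 0.964 (0.852 to 1.09), Tgfbr1 of 0.847 (0.669 to 1.07) and Tgfbr2 of 0.871 (0.606 to 1.25). The median log2 ratio was -0.24 over the 9 genes of the set with at least 20 UMIs in HSC-like nuclei and -0.05 over all 10467 genes, whose quartiles were -0.36 and 0.23, and 0 of the 9 passed 2-fold. The lower Pdgfrb was seen in both HSC clusters, at 385 against 667 CPM (ratio 0.578, 0.514 to 0.649) in the collagen-low cluster and 550 against 951 CPM (0.578, 0.494 to 0.676) in the collagen-high cluster. Tgfbr3 was likewise lower in both, with ratios of 0.667 (0.567 to 0.784) and 0.359 (0.270 to 0.475). The summed level of the 10 HSC markers was also lower in HSC-like nuclei of the HKO library, at 9199 against 14261 CPM, as was that of the 10 hepatocyte markers found in the same nuclei, at 1420 against 2458 CPM, while the 8 endothelial markers summed to 134 and 135 CPM. The part of these in the ratios was not tested.

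In macrophage-like nuclei the HKO library was higher in Tgfbr1 (ratio 1.204, 1.06 to 1.37), Pdgfb (1.26, 1.02 to 1.57) and Pdgfa (1.49, 1.12 to 2.02). Most of these nuclei belonged to the Kupffer cluster in the Flox library (352 of 512) and to the Trem2 cluster in the HKO library (928 of 1393). Within the Trem2 cluster the ratios were 0.864 (0.728 to 1.03) for Tgfbr1, 1.03 (0.766 to 1.41) for Pdgfb and 1.204 (0.806 to 1.85) for Pdgfa, and within the Kupffer cluster 0.9302 (0.742 to 1.16), 0.8499 (0.587 to 1.23) and 1.02 (0.621 to 1.67), so that no difference was detectable at this depth once the clusters were taken apart. Tgfbr2 moved otherwise. It was at 77.1 CPM in Flox and 39.2 CPM in HKO macrophages (0.508, 0.370 to 0.696), with 119 CPM (84.1 to 163, 38 UMIs) against 31.0 CPM (21.8 to 42.7, 37 UMIs) in the Trem2 cluster, a ratio of 0.261 (0.161 to 0.421), and 61.1 against 51.5 CPM in the Kupffer cluster, a ratio of 0.842 (0.544 to 1.30). Tgfb1 was slightly lower in HKO macrophages (0.839, 0.708 to 0.997). Its intervals included 1 in the Kupffer cluster (0.803, 0.638 to 1.008) and in the Trem2 cluster (1.02, 0.748 to 1.41). Tgfb3 was counted with 4 UMIs in Flox and 23 UMIs in HKO macrophages (3.33, 1.14 to 13.3). It had 1 and 8 UMIs in the Kupffer cluster (8.38, 1.12 to 372) and 3 and 15 in the Trem2 cluster (1.34, 0.379 to 7.21). Over the 6 genes of the set with at least 20 UMIs in these nuclei the median log2 ratio was 0.30, against -0.09 over all genes. The macrophage markers summed to 5908 and 4153 CPM and the hepatocyte markers to 2493 and 1424 CPM in macrophage-like nuclei, and their part in these ratios was not tested.

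In the endothelium the 7 genes with at least 20 UMIs had a median log2 ratio of -0.04, against -0.05 over all genes. Tgfbr2 was lower in the HKO library (ratio 0.717, 0.544 to 0.942), and Tgfb2 had a ratio of 1.77 (0.977 to 3.30), which includes 1. Hepatocyte markers summed to 3521 and 2068 CPM in these nuclei and to 4374 and 2268 CPM in cholangiocyte-like nuclei. In cholangiocyte-like nuclei the 4 genes with at least 20 UMIs had intervals that included 1: Tgfb2 (0.902, 0.585 to 1.43), Pdgfa (1.23, 0.745 to 2.12), Pdgfb (1.21, 0.630 to 2.51) and Tgfbr1 (0.612, 0.331 to 1.17). Tgfb3, with 9 and 8 UMIs, was at 35.9 and 10.1 CPM there (0.280, 0.0941 to 0.818). Cholangiocyte-like nuclei were 1.56% of the nuclei kept in the Flox library and 5.58% in the HKO library.

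In hepatocyte-like nuclei Pdgfa was higher in the HKO library, with a ratio of 1.70 (1.58 to 1.83). Tgfb2 was 3.95 times (2.63 to 6.05) as high in the HKO library from a level below 1 CPM, Tgfbr2 was lower (0.770, 0.678 to 0.874), and Tgfbr1 was close to equal (0.9848, 0.918 to 1.06). For the 9 genes measured in hepatocytes with 20 or more UMIs, the median log2 ratio was 0.04, against -0.02 over all 14689 genes, and 1 of the 9 passed 2-fold. The Tgfb2 level in hepatocytes was 0.653% and 2.86% of that in cholangiocytes, against medians of 0.0580% and 0.119% for the cholangiocyte markers, whose highest values were 4.46% and 3.03%.

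The 7 hepatocyte-like clusters shared these genes unevenly. The cluster led by Nrg1, Haus8 and Serpina7 was the highest in Pdgfa in the HKO library, at 83.0 CPM (76.4 to 90.0) against 39.5 CPM (33.1 to 46.7) in the Flox library, a ratio of 2.10 (1.74 to 2.55). The cluster led by Slc1a2 and Glul, the glutamine synthetase of hepatocytes around the central vein, went from 25.4 CPM (21.4 to 29.8) to 65.9 CPM (57.3 to 75.4), a ratio of 2.60 (2.09 to 3.23). The cluster led by Etnppl, Sds and Cyp2f2, genes of periportal hepatocytes, had 34.3 CPM of Pdgfa in both libraries (ratio 1.001, 0.838 to 1.19). Pdgfa was also higher in the HKO library in clusters with Cyp4a14 (1.24, 1.03 to 1.48), Hsd17b6 (1.32, 1.09 to 1.60) and Mup17 (1.51, 1.15 to 1.98) among their leading genes. In the small cluster led by Dtl and Uhrf1 the Pdgfa ratio was 0.726 (0.288 to 1.62), from 31 and 8 UMIs. With the Nrg1 cluster left out, the Pdgfa ratio over the remaining hepatocytes was 1.41 (1.30 to 1.54) in place of 1.70. That cluster also held 15 of the 35 Flox and 55 of the 82 HKO UMIs of Tgfb2, at 4.35 CPM (2.44 to 7.18) and 7.84 CPM (5.91 to 10.2). The Tgfb2 ratio was 1.80 (1.004 to 3.44) inside that cluster and 2.83 (1.53 to 5.32) without it. The Nrg1 cluster made up 496 of the 5808 Flox and 1171 of the 4351 HKO hepatocyte-like nuclei, so that the ratios over all hepatocytes also contain this difference in make-up.

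Tgfbr3 in hepatocytes was highest in the Glul cluster in both libraries, at 11.2 CPM (8.66 to 14.3, 65 UMIs) and 10.9 CPM (7.62 to 15.2, 35 UMIs), against 0.698 and 1.49 CPM in the Etnppl cluster. The small cluster led by Dtl and Uhrf1 could not be separated from it, at 9.34 CPM (4.27 to 17.7, 9 UMIs) and 5.84 CPM (0.708 to 21.1, 2 UMIs), and the Mup17 cluster held 4.42 and 2.57 CPM. Tgfbr1 was even across the hepatocyte clusters by comparison, between 41.7 and 55.0 CPM in the Flox library and between 37.5 and 70.1 CPM in the HKO library. Its HKO to Flox ratio was 0.796 (0.676 to 0.936) in the Etnppl cluster and 1.23 (1.01 to 1.49) in the Nrg1 cluster. The intervals of the remaining hepatocyte clusters included 1.

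**Figure D4:**
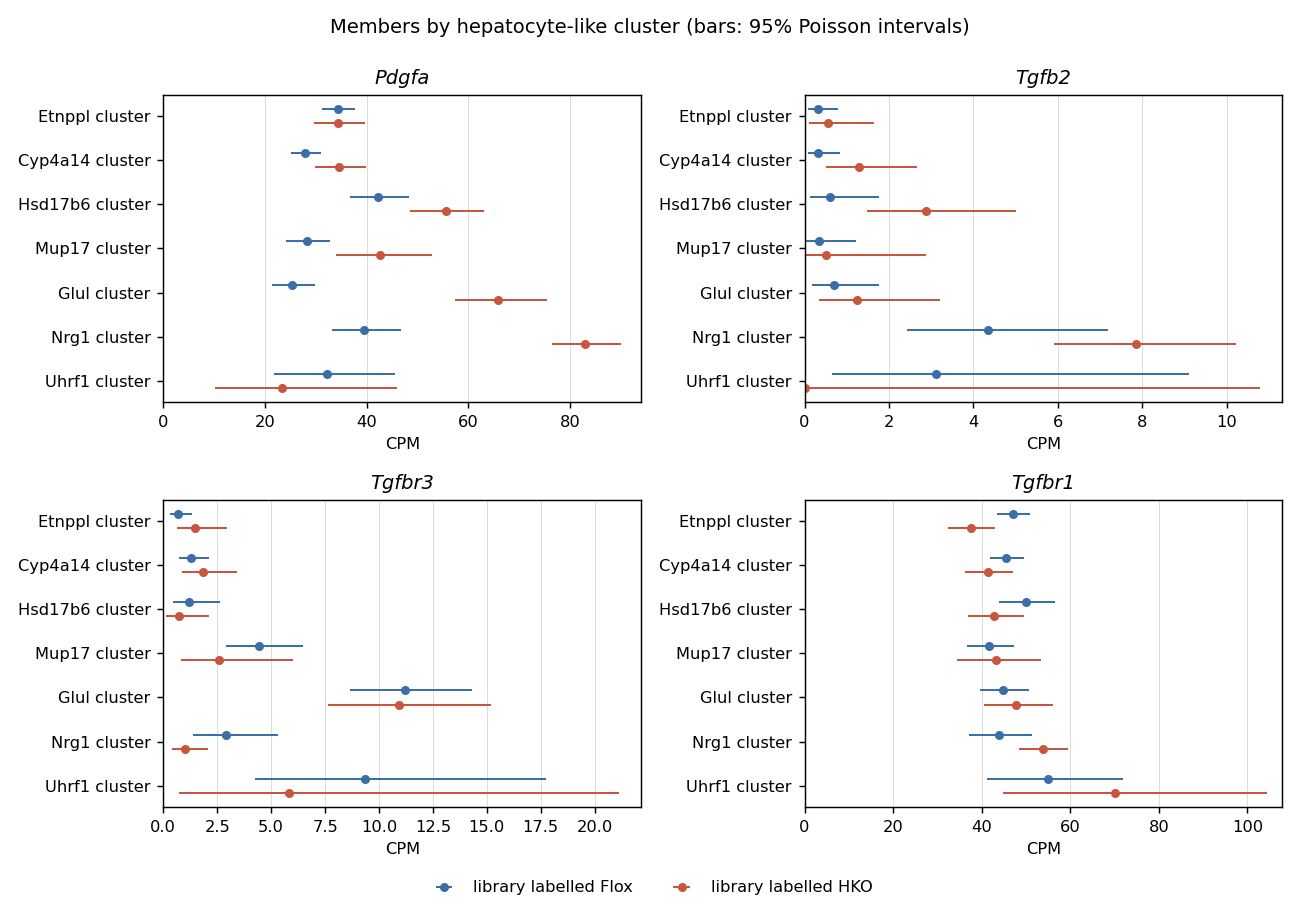
CPM of Pdgfa, Tgfb2, Tgfbr3 and Tgfbr1 (x axis, from 0, a separate scale for each gene) in the 7 hepatocyte-like clusters, each named by 1 of its leading genes (y axis), with points for the libraries labelled Flox (blue) and HKO (red) and bars for 95% Poisson intervals. Pdgfa is equal between libraries in the Etnppl cluster and higher in the HKO library in the Cyp4a14, Hsd17b6, Mup17, Glul and Nrg1 clusters. Tgfbr3 stands at 11.2 and 10.9 CPM in the Glul cluster.

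Other genes of both pathways were followed in HSC-like nuclei as 63 genes in 7 lists. Of the 57 with at least 20 UMIs, 1 was at least 2-fold higher in the HKO library (2.04% of all genes) and 2 were at least 2-fold lower (3.95% of all genes), 28 had a log2 ratio above 0 and 29 below, and their median was -0.01, against -0.05 over all genes. The gene past 2-fold higher was Ltbp2, a latent TGF-beta binding protein family member, at 8.42 and 18.6 CPM (ratio 2.21, 1.13 to 4.58). Those past 2-fold lower were Pdgfd, a further PDGF ligand, at 23.3 and 9.02 CPM (0.387, 0.201 to 0.716), and Dcn, the proteoglycan decorin that binds TGF-beta and is also one of the HSC markers, at 4726 and 2299 CPM (0.486, 0.468 to 0.505). Dcn was no longer past 2-fold under TMM scaling (log2 ratio -0.99) or with types set for each nucleus by its own markers (-0.92), nor were Ltbp2 (0.64) and Pdgfd (-0.81) with a pseudocount of 10 CPM. Also near the ends of the order were Plcg1, a phospholipase recruited by PDGF receptors (ratio 1.88, 1.36 to 2.64) and the integrin subunit Itgb1 (0.517, 0.449 to 0.595).

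By list, the 14 measured genes of TGF-beta latency and activation had a median log2 ratio of -0.17, with 5 above and 9 below 0. The 3 measured genes among co-receptors, type I receptors and decoy receptors, Eng, Bambi and Acvr1, were all below 0 with a median of -0.63. Eng, the endothelial co-receptor endoglin, was at 245 and 158 CPM (0.644, 0.549 to 0.753). The 3 SMADs, led by Smad4 at 129 and 105 CPM, had a median of -0.15. The 9 inhibitors had a median of 0.11 and the 13 measured PDGF receptor adaptors and enzymes, led by Pik3r1 at 467 and 489 CPM, one of 0.16. The 13 measured TGF-beta targets had a median of 0.00, with 7 above and 6 below 0, and Col3a1 among them was at 1414 and 1408 CPM (0.995, 0.940 to 1.05). Of these targets 11 had their highest level in HSC-like nuclei in both libraries. The list was chosen with earlier results known. It holds collagen genes, Col1a1, Col1a2 and Col3a1, that are also leading genes of the collagen-high HSC cluster. The count therefore describes the list, and whether it reflects TGF-beta signalling in HSCs was not tested. Single targets differed between the libraries in both directions. Col1a2 (1.40, 1.30 to 1.52) and Col1a1 (1.24, 1.11 to 1.37) were among those higher in the HKO library. Loxl2 (0.573, 0.472 to 0.695) and Tgfbi (0.741, 0.678 to 0.809) were lower. The cluster led by Col1a2 and Col1a1 made up 196 of the 822 Flox and 395 of the 1180 HKO HSC-like nuclei. The part of this difference in make-up in the target ratios was not tested. Of the PDGF list, Nrp1, a co-receptor, was at 139 and 141 CPM.

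Over the 16 combinations of class and library, the patterns most like those of the 10 genes were found among the 12718 genes by Pearson's r of log2(CPM + 1). For Pdgfrb these were Ntm (r = 0.993), Adamts13 (0.983) and Lhx2 (0.981), and for Pdgfra Pcdh18 (0.969), Lhx2 (0.967) and Nrxn3 (0.956). Tgfbr3 was closest to Bgn (0.925), Il6st (0.913) and Calcrl (0.912), Tgfbr1 to Prdx5 (0.945), Nfkbiz (0.932) and Sass6 (0.920), and Tgfbr2 to Mcm3ap (0.929), Klf2 (0.923) and Slc1a5 (0.919). Among the ligands, Tgfb1 was closest to Msn (0.984), Trps1 (0.976) and Abcg1 (0.967), Tgfb2 to Zc2hc1a (0.947), Glis2 (0.936) and Amigo1 (0.926), and Tgfb3 to Wnt4 (0.889), Sestd1 (0.887) and Ltbp3 (0.882). Pdgfa was close to Cpeb3 (0.906) and Rassf8 (0.906), and Pdgfb closest to Prr5l (0.948), Pxn (0.946) and Gpr160 (0.944). The points share libraries and classes, so these values describe likeness over 8 classes and nothing further.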

How the data were processed

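Sorted liver nuclei of 2 libraries (1 per genotype, each a pool of mice) had been profiled with 10x 3′ v3 chemistry. The authors deposited raw UMI counts per gene and barcode, made with Cell Ranger 8.0.1 on mm10 (GRCm38) with intronic reads excluded. From these counts, nuclei with at least 300 detected genes were kept, the nuclei with the highest Scrublet scores (scanpy 1.11.5) were removed at the expected doublet rate (7.49% and 8.58%), and Seurat 5.3.0 integrated the libraries by canonical correlation (3000 variable features without the genes described, 15 components, resolution 0.8, finer than in the study). Clusters were named where at least 3 markers reached 1.5 times the median cluster. Those with mixed markers or led by mitochondrial genes stayed unnamed (76 and 214 nuclei), and nuclei of proliferating (52 and 108) and mesothelial (14 and 14) clusters were left out of the classes compared. CPM, ratios, log2 ratios with 1 CPM added, exact intervals and a floor of 3 counts were computed as given with the results. Ratios and intervals were run on counts simulated with Poisson error alone. That run held no variation between mice or preparations and so cannot show how the intervals fare with it. No gene was tested between groups, since each group is 1 library. TMM factors came from edgeR 4.0.16. The 10 genes, the pathway lists and the markers were chosen with earlier results of these data known. Genes were named in the text by a rule. The rule took the 10 genes, and the 3 highest and 3 lowest pathway ratios in HSC-like nuclei. It also took the gene with most UMIs of each list and the 3 most similar patterns. Bambi, Acvr1, Pdgfc, Col1a1, Col1a2, Loxl2 and Tgfbi were added after their values were seen. Some genes that the rule names are not reported here. Reads of overlapping genes on the opposite strand (as annotated for Tgfb2, Tgfb3, Pdgfra and Pdgfa) are told apart by the stranded 3′ protocol, but not those of Gm43422 (Tgfbr3) and Mir7025 (Pdgfra) on the same strand. Alternatives were other doublet, gene, integration and typing choices, pseudocounts, TMM scaling and totals.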

Additional observations from a re-analysis of the deposited data

Results flagged for a closer look

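Tgfb2 moved in opposite directions between the libraries in different classes of nuclei. It was 3.95 times (2.63 to 6.05) as high in hepatocyte-like nuclei of the library labelled HKO as in those of the library labelled Flox, and in HSC-like nuclei it stood at 0.593 of the Flox level (0.423 to 0.829). Both intervals exclude 1. The difference between these ratios was not tested, since each genotype is 1 library. The hepatocyte levels were 0.756 and 2.99 CPM, from 35 and 82 UMIs, and the HSC levels 58.9 and 35.0 CPM, from 91 and 62 UMIs. The 10 HSC markers were also lower in HSC-like nuclei of the HKO library, at 9199 against 14261 CPM. The hepatocyte-like cluster led by Nrg1 held 496 Flox and 1171 HKO nuclei. The Tgfb2 ratio was 1.80 (1.004 to 3.44) inside that cluster and 2.83 (1.53 to 5.32) in the other hepatocytes. The part of these in the 2 ratios was not tested.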

How the results depend on the processing

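Of the 69 log2 ratios of the 10 genes in their highest class recomputed under alternatives, all 69 stayed within the counting interval of the reported value, and 1 had the opposite sign (Tgfbr2 in B cell-like nuclei, at its lowest -0.02 against 0.13). The log2 ratio ranged from -0.74 to -0.68 for Pdgfrb, from -0.86 to -0.74 for Tgfbr3 and from -0.09 to -0.0015 for Pdgfra in HSC-like nuclei, and from -2.23 to -1.19 for Tgfb3 in cholangiocyte-like nuclei. The number of genes with the same highest class in both libraries was 7, and 6 with doublets kept or without integration, where Pdgfb was highest in the leukocyte cluster in 1 library, and 8 with types set for each nucleus by its own markers. With a pseudocount of 10 CPM, 1 pathway gene in place of 3 was past 2-fold in HSC-like nuclei, as low genes are then drawn to 0. The count was 2 under TMM scaling and with types set for each nucleus, 4 with no minimum of UMIs, where Pdgfc was added, and 3 under the other 3 alternatives. TMM scaling moved log2 ratios by 0.12 in macrophage-like nuclei and by less than 0.1 in the other 7 classes. No ratio of Tgfb1 was had with types set for each nucleus, which have no leukocyte cluster. No paired analysis was possible because each genotype is 1 library, and for the same reason no replicate could be left out. Depth limited the B cell-like nuclei most, where 3 UMIs amount to 39.7 and 41.0 CPM.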

Other observations

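Cholangiocyte-like nuclei carried PDGF ligands beyond those described. Pdgfd was at 160 CPM (40 UMIs) in the Flox and 95.7 CPM (76 UMIs) in the HKO library, and Pdgfc, a ligand of PDGFRA, was at 148 CPM (37 UMIs) and 111 CPM (88 UMIs). In both libraries these were the highest levels of either gene among the 8 classes compared. Hepatocytes had 5.75 CPM of Pdgfc in the Flox and 8.09 CPM in the HKO library, from 266 and 222 UMIs, and 0.0432 and 0.0729 CPM of Pdgfd.

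The 14 mesothelial-like nuclei of each library, too few to be compared, held 7 and 4 UMIs of Tgfb2 (263 CPM, 106 to 541, and 226 CPM, 61.4 to 577) and 5 and 1 UMIs of Tgfb3, with 0 UMIs of Pdgfra, Pdgfrb, Tgfb1 and Pdgfb.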
